A study of Homo sapiens with 12 samples.

Results

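The replication-dependent histone genes were taken from the count tables by name, as every symbol made of HIST and a cluster number followed by a histone family and a letter (for example HIST1H2BK). The rule found 70 genes among 55765 symbols. Of these, 31 had enough counts to compare between groups and 39 did not. The rule reads names only. The study used T47D, a breast cancer cell line of luminal type with progesterone and estrogen receptors, and asked whether progestin-induced expression requires PRMT1, an enzyme that methylates arginines in proteins. PRMT1 was depleted with an siRNA (siPRMT1) or cells were given an siRNA of nonspecific sequence (siCT). Cells were then kept for 6 h with 10 nM R5020, a synthetic progestin, or with as much ethanol, the vehicle. The titles of the ethanol libraries read T0, whereas their treatment entry gives ethanol for 6 h, which is followed here. Were they taken at the start, R5020 and 6 h of culture could not be told apart in the R5020 comparisons. Each of the 4 combinations of siRNA and treatment forms a group of 3 biological replicates. All 12 libraries come from cells given an siRNA and grown with serum and insulin, and the labels name no untransfected group and give no cell cycle phase.

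Replication-dependent histone genes encode the core histones H2A, H2B, H3 and H4, which form the nucleosome, and the linker histone H1, which binds the DNA between nucleosomes. They lie in clusters, are transcribed mainly in S phase, and their mRNAs usually end in a stem-loop bound by SLBP in place of a poly(A) tail. Some of the genes can also give polyadenylated mRNAs, which are seen in cells that leave the cycle or differentiate. The libraries were made with a kit for mRNA, and the labels used here do not say how RNA was selected. A kit that selects poly(A) tails would record the polyadenylated forms above all, so a level here need not follow the total mRNA of a gene.

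The stem-loop is shown first, because it is the feature that sets these mRNAs apart. A stem of 6 bases starting with GG around a loop of 4 bases starting with TT was searched downstream of the stop codon in GENCODE v29 transcripts (GRCh38). It was found for 25 of the 70 genes, 17 of them among the 31 tested. Anywhere in a transcript, 119 of 19669 protein-coding gene names (0.605%) held it, and 94 of the 119 are not among the 70 genes. The forms below are written as DNA from 5′ to 3′, with the stem in capitals and the loop in lower case.
HIST2H2BE and HIST1H2AC: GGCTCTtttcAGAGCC
HIST1H2BC, HIST1H2BD and HIST1H2BF: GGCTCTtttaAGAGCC
HIST1H4H and HIST1H4E: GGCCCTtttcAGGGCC
HIST2H4A and HIST1H4I: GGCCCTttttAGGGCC
The annotated transcript often goes on past the stem-loop. In HIST2H2BE it continued for 1729 bases and in HIST1H4H for up to 1655 bases, whereas HIST1H2BC continued for 116 bases. More than 200 bases after the stop codon were annotated for 15 of the 31 tested genes and for 8 of the 39 others. For 10 tested genes and 24 others the annotation ends at the stop codon, HIST1H2BK and HIST1H1C included, so that no stem-loop could be looked for there. The gene models behind the deposited counts are not named in the labels, and a model that ends at the stop codon would leave out reads from a longer end.

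Promoters are shown for 4 of the 6 histone genes with the most counts, chosen after their values were seen: HIST1H2BK, HIST1H2BC and HIST1H4H, which rose with siPRMT1, and HIST2H2BE, which fell. They are the 250 bases before the start in RefSeq (GRCh38.p14), all on the minus strand, with 4 motifs in capitals on either strand. The motifs are CCAAT (a general promoter box), TATAAA (the TATA box), ATTTGCAT (the octamer, a known element of H2B promoters) and TGTTCT (one arm of the element that the progesterone receptor and related steroid receptors can bind). The TATA box can overlap its own reverse complement, as it does near the start of the HIST1H2BK window.
HIST1H2BK, chr6:27146859-27147108: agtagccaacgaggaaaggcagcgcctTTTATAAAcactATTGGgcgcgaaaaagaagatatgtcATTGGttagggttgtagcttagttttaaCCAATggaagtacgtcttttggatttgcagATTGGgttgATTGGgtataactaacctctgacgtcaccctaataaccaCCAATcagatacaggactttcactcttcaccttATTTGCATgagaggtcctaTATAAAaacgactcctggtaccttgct
HIST2H2BE, chr1:149886683-149886932: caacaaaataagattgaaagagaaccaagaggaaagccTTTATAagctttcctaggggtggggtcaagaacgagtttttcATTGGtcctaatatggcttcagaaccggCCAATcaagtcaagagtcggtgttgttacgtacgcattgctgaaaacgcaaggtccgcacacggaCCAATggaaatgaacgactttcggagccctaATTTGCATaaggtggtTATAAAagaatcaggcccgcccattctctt
HIST1H2BC, chr6:26123927-26124176: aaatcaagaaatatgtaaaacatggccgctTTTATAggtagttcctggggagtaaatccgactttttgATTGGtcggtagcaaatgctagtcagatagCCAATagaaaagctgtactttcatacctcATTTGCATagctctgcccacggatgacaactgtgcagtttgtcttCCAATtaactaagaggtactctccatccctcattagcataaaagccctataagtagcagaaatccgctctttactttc
HIST1H4H, chr6:26285535-26285784: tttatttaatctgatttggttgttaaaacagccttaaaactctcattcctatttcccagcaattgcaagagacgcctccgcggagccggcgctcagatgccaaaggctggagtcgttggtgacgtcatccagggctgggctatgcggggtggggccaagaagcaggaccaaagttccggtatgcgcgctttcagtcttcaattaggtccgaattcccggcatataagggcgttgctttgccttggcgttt
The 3 H2B windows each hold the CCAAT box and the octamer and lack the steroid receptor arm. HIST1H2BK and HIST2H2BE have TATAAA 27 and 30 bases before the start. In the HIST1H2BC window its only match is on the opposite strand, 220 bases before the start. The same bases lie 31 bases before the start of HIST1H2AC, which is transcribed the other way. The HIST1H4H window holds none of the 4 motifs. A promoter was matched for 60 of the 70 genes. CCAAT occurred in 85% of them against 37% of 27305 genes in the table, TATAAA in 66.7% against 13%, ATTTGCAT in 43.3% against 2.03%, and TGTTCT in 25% against 14.8%. These shares count a match anywhere in the window on either strand, which can be the box of a neighbour that starts head to head. The octamer was present in 14 of 18 H2B and 11 of 13 H2A promoters, in 1 of 11 H3 promoters, and in none of the 12 H4 and 6 H1 promoters. A match of letters is a description of the window and says nothing of binding.

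Each library held 26783525 to 34120937 counts. PRMT1 was at 29.7 to 50.7 CPM (counts divided by library size, scaled between libraries by TMM) in the 6 siCT libraries and at 6.89 to 8.38 in the 6 siPRMT1 libraries. Its log2 change with siPRMT1 (± SE) was -2.19 ± 0.172 in ethanol and -2.60 ± 0.176 in R5020, with adjusted p = 7.79e-06 and 2.96e-06 (quasi-likelihood test of edgeR, Benjamini-Hochberg adjustment over 17727 genes). Of the markers of a luminal line, all 8 were present in every library, with KRT18 at 1887 to 7734 CPM. COL1A2, COL3A1, PTPRC, CD3E, CD14 and CDH5 did not exceed 0.547 CPM in any library, VIM reached 2.48 CPM, and COL1A1 ranged from 28.4 to 78.9 CPM. Both siCT ethanol replicate 3 and siCT R5020 replicate 1 stood apart, with 59.3% and 52.4% of their counts from mitochondrial genes against 31.3% to 38.3% in the other libraries.

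Counts were concentrated in few genes. HIST1H2BK, an H2B gene, took 29.1% of all counts of the 70 genes, HIST1H1C, the linker histone H1.2, took 18.7%, and HIST2H2BE, an H2B gene of the chromosome 1 cluster, took 14.6%. HIST1H2AC (an H2A gene), HIST1H2BC (H2B) and HIST1H4H (H4) added 9.71%, 7.81% and 5.12%, so that 6 genes held 84.9%. The H2B genes together held 61.6%, the H1 genes 18.9%, the H2A genes 11.6%, the H4 genes 6.2% and the H3 genes 1.72%. These shares are of reads and were not divided by gene length. The 31 tested genes comprised 15 of 23 H2B, 5 of 14 H2A, 5 of 13 H3, 3 of 14 H4 and 3 of 6 H1 genes, and 2 of the tested H2B names, HIST2H2BC and HIST2H2BD, are annotated as transcribed pseudogenes. Because a gene could enter the test through the group in which it was high, the 31 are not a neutral sample of the 70. HIST1H2BO had 4 to 19 counts in the siCT libraries and 18 to 40 in the siPRMT1 libraries. HIST1H1D had 2 to 9 and 7 to 15, HIST1H2AM 2 to 10 and 6 to 20, and HIST1H2BE 3 to 9 and 4 to 16. All of these genes passed the filter only through siPRMT1 libraries.

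Of the 39 genes left out, 13 had no count in any library and 26 had too few, with at most 14 counts in a library (HIST1H1T, a testis linker histone). HIST1H4C had 1 count over all 12 libraries and HIST1H1B, encoding H1.5, had 19. Only 23 genes had at least 10 counts in every library and 11 had at least 100. HIST2H4A and HIST2H4B, both H4 genes, and HIST2H3A and HIST2H3C, both H3 genes, were at 0 throughout. These pairs are near-identical copies: 97.5% of the 50-base words of HIST2H4A and 100% of those of HIST2H3A occur in another gene of GENCODE v29. A counter that passes over reads shared between genes would also list them at 0, and this was not tested. A count of 0 allows at most 3 counts, or 0.0798 to 0.164 CPM depending on the library, for counting error alone.

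**Figure D1:**
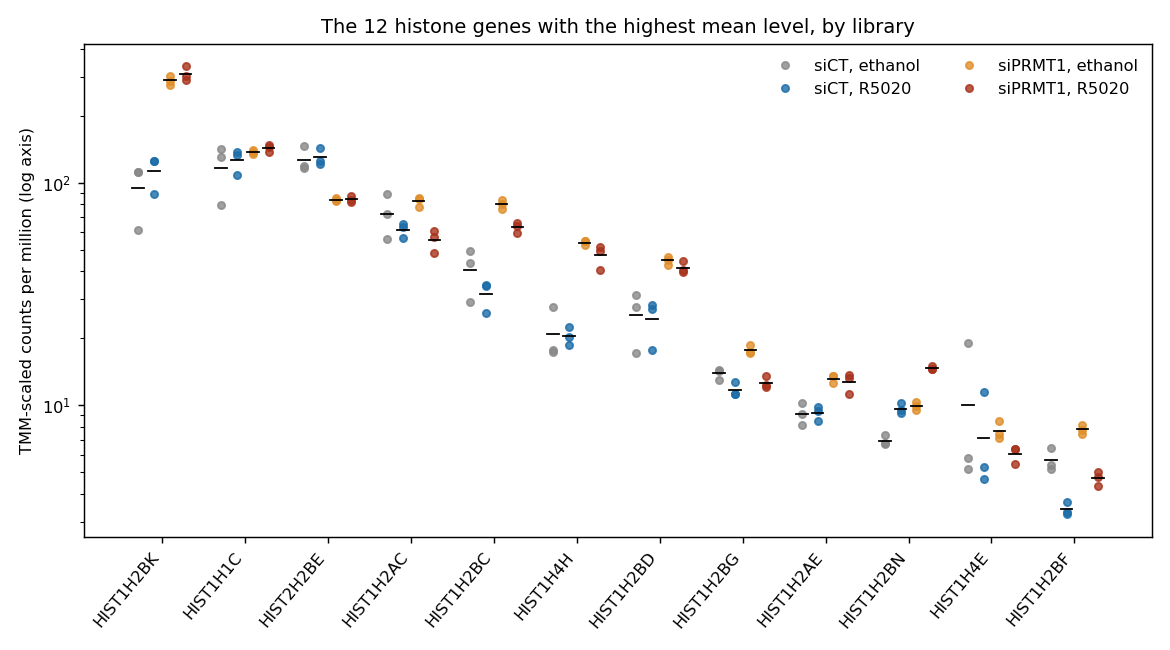
TMM-scaled CPM (log axis) of the 12 histone genes with the highest mean level. Points are single libraries in the 4 groups and bars are group means of 3. The siPRMT1 points of HIST1H2BK (276 to 334) lie above its siCT points (61.1 to 126), and those of HIST2H2BE lie below.

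Depletion of PRMT1 was followed by higher RNA of 11 histone genes and lower RNA of 2 in ethanol, and by higher RNA of 9 and lower RNA of 2 in R5020. The 9 that rose in R5020 all rose in ethanol as well. They were 7 H2B genes (HIST1H2BK, HIST1H2BC, HIST1H2BD, HIST1H2BN, HIST1H2BF, HIST1H2BH, HIST1H2BO), the H4 gene HIST1H4H and the H2A gene HIST1H2AE. HIST2H2BE, also an H2B gene, fell in both. HIST1H2BO, and HIST1H1D among the 11 in ethanol, passed the filter only through siPRMT1 libraries, so their calls are not independent of the filter. A gene was called at adjusted p under 0.05 in edgeR's quasi-likelihood test. Over all 17727 genes tested, 13.6% were called higher and 19.2% lower with siPRMT1 in ethanol, and 11.5% higher and 14.2% lower in R5020. The median log2 change of the 31 genes was 0.31 in ethanol, beside -0.07 over all genes, and 0.16 in R5020, beside -0.03. These medians include HIST1H2BO, HIST1H1D, HIST1H2AM and HIST1H2BE, which all passed the filter only through siPRMT1 libraries. They are therefore not independent of the filter. The comparisons in ethanol and in R5020 use different libraries. In bulk RNA, a change in the share of cells that express a gene and a change in RNA per cell cannot be told apart.

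HIST1H2BK had the most counts of all the genes and changed most among those with a mean above 1 CPM. It stood at 112, 112 and 61.1 CPM in siCT ethanol, 89.3, 126 and 125 in siCT R5020, 287, 276 and 303 in siPRMT1 ethanol and 334, 289 and 302 in siPRMT1 R5020. Every siPRMT1 library was above every siCT library, and the lowest siCT values were those of the libraries with the high mitochondrial share. The log2 change was 1.60 ± 0.225 in ethanol (adjusted p = 0.00033) and 1.44 ± 0.224 in R5020 (adjusted p = 0.000823), a rise of 3.04-fold and 2.72-fold. Without both libraries that stood apart the values were 1.38 and 1.31. In GENCODE v29, 74.1% of its 50-base words also occur in another gene, most of them in H2BFS, so reads could be shared between these genes.

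HIST1H4H, encoding histone H4, was the other gene that rose more than 2-fold in both comparisons with more than 10 CPM in every library. Its levels were 17.4, 27.7 and 17.7 CPM in siCT ethanol and 18.6, 20.3 and 22.5 in siCT R5020. They were 54.7, 54.7 and 52.3 CPM in siPRMT1 ethanol and 49.5, 51.4 and 40.6 in siPRMT1 R5020. No siPRMT1 library overlapped a siCT library. The rise was 1.36 ± 0.182 (log2 ± SE; adjusted p = 0.000239) in ethanol and 1.20 ± 0.181 (adjusted p = 0.000691) in R5020. None of its 50-base words occurs in another gene of that annotation.

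HIST1H2BC was at 49.5, 43.8 and 29 CPM in siCT ethanol, 26.0, 34.7 and 34.2 in siCT R5020, 83.4, 80.0 and 76.3 in siPRMT1 ethanol and 66.2, 59.6 and 64.0 in siPRMT1 R5020. It rose by 0.97 ± 0.186 on the log2 scale in ethanol and by 1.00 ± 0.186 in R5020 (adjusted p = 0.00234 and 0.00246). Its groups did not overlap by siRNA either. HIST1H2BD, an H2B gene from the same cluster, was at 31.4, 27.6 and 17.2 CPM in siCT ethanol, 17.7, 28.3 and 27.0 in siCT R5020, 42.8, 45 and 46.5 in siPRMT1 ethanol and 44.4, 39.7 and 40.4 in siPRMT1 R5020. The rise was 0.81 ± 0.214 and 0.77 ± 0.214 (adjusted p = 0.0122 and 0.02). For both genes the lowest siCT libraries were again those with the high mitochondrial share, and without them the rise in ethanol was 0.79 for HIST1H2BC and 0.61 for HIST1H2BD.

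HIST2H2BE moved the other way from the other abundant H2B genes. It was at 117, 118 and 146 CPM in siCT ethanol and 144, 126 and 121 in siCT R5020, and at 85.7, 82.7 and 83.5 in siPRMT1 ethanol and 87.2, 82.1 and 83.6 in siPRMT1 R5020. All 6 siPRMT1 libraries lay below all 6 siCT libraries. The log2 change was -0.60 ± 0.137 in ethanol (adjusted p = 0.00621) and -0.63 ± 0.137 in R5020 (adjusted p = 0.00592). Here the libraries with the high mitochondrial share had the highest siCT values, and without them the change in ethanol was -0.48. Scaled by library totals alone, it was -0.38 and was not called.

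The ratio of HIST1H2BK to HIST2H2BE counts within a library does not depend on how libraries are scaled. In siCT ethanol it was 0.956, 0.946 and 0.418, and in siCT R5020 0.621, 0.998 and 1.03. In siPRMT1 ethanol it was 3.35, 3.34 and 3.63, and in siPRMT1 R5020 3.83, 3.52 and 3.61. HIST1H2BK thus had at most about as many reads as HIST2H2BE in siCT cells and more than 3 times as many in each siPRMT1 library. This pair of genes was chosen after its values were seen.

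**Figure D2:**
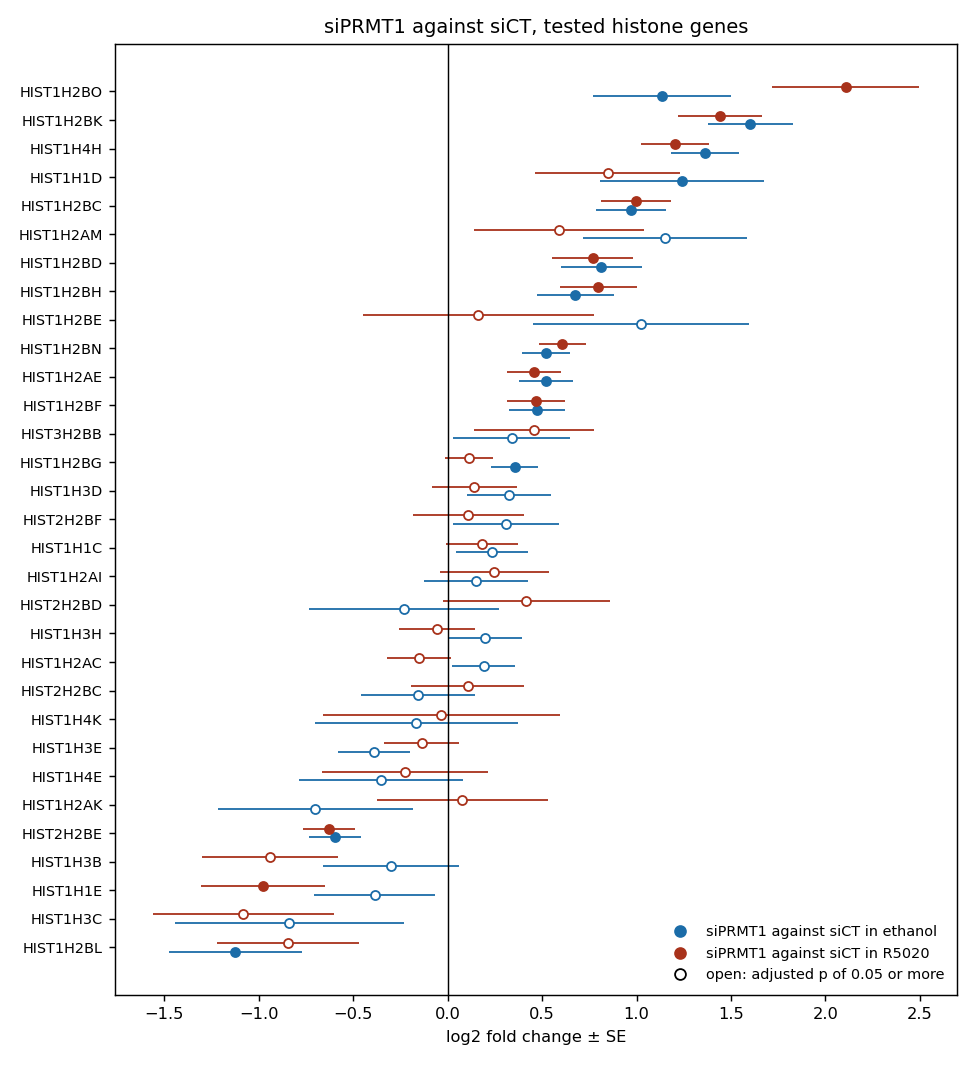
Log2 fold change of siPRMT1 against siCT for the tested histone genes, in ethanol (blue) and in R5020 (red), with bars of 1 SE, filled where the adjusted p is under 0.05. HIST1H2BK (1.60 and 1.44) and HIST1H4H (1.36 and 1.20) lie far to the right and HIST2H2BE (-0.60 and -0.63) to the left.

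The other H2B genes that rose were less abundant. HIST1H2BN rose by 0.52 ± 0.126 in ethanol and 0.61 ± 0.124 in R5020, HIST1H2BF by 0.47 ± 0.148 and 0.47 ± 0.154, and HIST1H2BH by 0.68 ± 0.204 and 0.80 ± 0.204 (all log2 ± SE, adjusted p between 0.00411 and 0.0399). HIST1H2AE, encoding H2A, rose by 0.52 ± 0.144 and 0.46 ± 0.144 (adjusted p = 0.0153 and 0.0328). It stood at 8.17 to 10.2 CPM in the siCT libraries and 11.2 to 13.7 in the siPRMT1 libraries, which did not overlap. In R5020 the calls of HIST1H2AE and HIST1H2BF were lost in 11 and 12 of 21 alternative settings. HIST1H2BN spans HIST1H2AK on the opposite strand and HIST1H2AL on the same strand in GENCODE v29. As no strand setting is stated, reads of HIST1H2BN and HIST1H2AK cannot be told apart where these genes overlap. Of the 50-base words of HIST1H2AL, 4.07% occur in another gene.

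HIST1H2BO, the H2B gene with the highest fold in R5020, was counted thinly. It had at most 40 counts in a library and stood at 0.518, 0.206 and 0.273 CPM in siCT ethanol, 0.161, 0.221 and 0.250 in siCT R5020, 0.737, 0.692 and 0.843 in siPRMT1 ethanol and 0.872, 0.656 and 1.26 in siPRMT1 R5020. The siPRMT1 libraries were all above the siCT libraries. The log2 rise was 1.13 ± 0.365 in ethanol and 2.11 ± 0.389 in R5020 (adjusted p = 0.0299 and 0.00218), and the 95% interval in R5020 ran from 1.27 to 2.95. HIST1H1D, encoding the linker histone H1.3, had at most 15 counts in a library and rose by 1.24 ± 0.435 in ethanol (adjusted p = 0.04), from 0.109, 0.147 and 0.109 CPM to 0.355, 0.266 and 0.272. In R5020 its change was 0.85 ± 0.382 (adjusted p = 0.114). The call of HIST1H1D in ethanol was kept in 7 alternative settings and lost in 12, DESeq2 among them (adjusted p = 0.106).

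The remaining calls were each made in 1 of the 2 comparisons. HIST1H2BG (H2B) rose by 0.35 ± 0.126 in ethanol (adjusted p = 0.0456), where it went from 13.0, 14.5 and 14.3 CPM to 18.6, 17.4 and 17.2. HIST1H2BL (H2B) fell by 1.12 ± 0.352 in ethanol (adjusted p = 0.0265), from 1.04, 0.737 and 0.820 CPM to 0.410, 0.373 and 0.408. HIST1H1E, encoding H1.4, fell by 0.98 ± 0.329 in R5020 (adjusted p = 0.0424), from 1.33, 1.38 and 0.875 CPM to 0.485, 0.802 and 0.536. The call of HIST1H2BG was kept in 6 alternative settings and lost in 15 (adjusted p up to 0.164), that of HIST1H2BL was kept in 14 and lost in 6, and that of HIST1H1E was kept in 11 and lost in 10. In the comparison in which they were not called, the values were 0.11 for HIST1H2BG, -0.84 for HIST1H2BL and -0.39 for HIST1H1E.

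HIST1H1C, the second most abundant gene, was called in no comparison. Its levels were 141, 130 and 79.6 CPM in siCT ethanol, 108, 138 and 133 in siCT R5020, 137, 141 and 135 in siPRMT1 ethanol and 137, 148 and 144 in siPRMT1 R5020. The groups overlapped. The log2 change with siPRMT1 was 0.23 ± 0.192 in ethanol, with a 95% interval from -0.18 to 0.65, and 0.18 ± 0.192 in R5020, with an interval from -0.23 to 0.60. Of the 5 tested H3 genes, none was called with siPRMT1 by edgeR or DESeq2, with 0 at an unadjusted p under 0.05 in ethanol and 2 in R5020, and their median log2 change was -0.30 in ethanol and -0.14 in R5020. HIST1H3H, the H3 gene with the most counts, had 0.20 ± 0.196 and -0.06 ± 0.2.

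By family, siPRMT1 in ethanol gave 8 higher and 2 lower of 15 H2B genes, 1 higher of 5 H2A, 1 higher of 3 H4 and 1 higher of 3 H1. In R5020 it gave 7 higher and 1 lower H2B, 1 higher H2A, 1 higher H4 and 1 lower H1. The H1 gene that rose in ethanol was HIST1H1D, and DESeq2 called 0 of the 3 H1 genes there. HIST1H1D, and HIST1H2BO among the H2B genes, passed the filter only through siPRMT1 libraries. Over all genes, 13.6% were called higher and 19.2% lower in ethanol, and 11.5% and 14.2% in R5020. The number of genes per family differs, and the difference between families was not tested. The summed level of all 70 genes was 569 ± 69.1 CPM with siCT and 854 ± 13.4 with siPRMT1 in ethanol (SD, n = 3). In R5020 it was 572 ± 36.8 CPM with siCT and 818 ± 22.0 with siPRMT1. All siPRMT1 sums, 801 CPM or more, were above all siCT sums, 609 CPM or less. HIST1H2BK made up 12.5% to 21.3% of the histone counts in siCT libraries and 32.9% to 39.6% in siPRMT1 libraries. Without HIST1H2BK the sums were 474 ± 39.7 and 566 ± 6.96 CPM in ethanol and 458 ± 16.4 and 510 ± 1.99 CPM in R5020. As CPM of all counts, with no TMM scaling, the sums over all 70 genes were 571 ± 217 and 953 ± 23.1 in ethanol and 556 ± 139 and 809 ± 10.6 in R5020.

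The counts of called genes depended on single libraries and on the scaling. For siPRMT1 in ethanol, 6, 7 and 6 genes were called in place of 13 when siPRMT1 ethanol replicates 1, 2 and 3 were left out in turn. In R5020, 7, 7 and 6 were called in place of 11 without siCT R5020 replicate 1, siPRMT1 R5020 replicate 1 and siPRMT1 R5020 replicate 3. Scaled by library totals alone, 5 genes were called in ethanol and 4 in R5020, all higher. That scaling raised the median of all genes by 0.18 on the log2 scale in ethanol. It also lowered the calls over all genes, from 2407 higher and 3399 lower to 1325 and 1696 in ethanol. In R5020 they went from 2046 higher and 2513 lower to 744 and 1685. The share of all genes called with a library left out is not given here. The counts with a library left out therefore show only how calls moved.

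The effect of R5020 was compared within each siRNA state. In siCT cells 1 of the 31 rose and 1 fell, beside 7.59% of all genes called higher and 5.43% lower. In siPRMT1 cells 1 rose and 3 fell, beside 9.30% higher and 6.08% lower, so that the share of histone genes called with R5020 in siPRMT1 cells was near that of all genes. The median log2 change of the 31 was -0.02 in siCT, beside -0.04 over all genes, and -0.19 in siPRMT1, beside -0.0036.

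HIST1H2BN and HIST1H2BF, both H2B genes, moved in opposite directions in both siRNA states. HIST1H2BN was at 6.68, 7.34 and 6.78 CPM in siCT ethanol and 9.20, 10.2 and 9.56 in siCT R5020, and at 9.96, 10.4 and 9.52 in siPRMT1 ethanol and 14.5, 14.6 and 15.1 in siPRMT1 R5020. It rose by 0.48 ± 0.127 in siCT (adjusted p = 0.023) and by 0.56 ± 0.124 in siPRMT1 (adjusted p = 0.00644) on the log2 scale, with no overlap between R5020 and ethanol in either. Its level was thus lowest in siCT ethanol and highest in siPRMT1 R5020, and the remaining 2 groups overlapped. HIST1H2BF was at 5.15, 5.37 and 6.45 CPM in siCT ethanol, 3.23, 3.67 and 3.31 in siCT R5020, 8.19, 7.77 and 7.45 in siPRMT1 ethanol and 4.78, 4.34 and 5.01 in siPRMT1 R5020. Its log2 change was -0.72 ± 0.153 in siCT and -0.73 ± 0.149 in siPRMT1 (adjusted p = 0.00588 and 0.00406), again without overlap. HIST1H2AK, which HIST1H2BN spans on the opposite strand, had 0.63 ± 0.484 and 1.41 ± 0.488 with R5020 (adjusted p = 0.484 and 0.071 in edgeR's test). Of the 5 tested H2A genes, edgeR called 1 with R5020 in siPRMT1 cells, HIST1H2AC, and DESeq2 called 2. How far the reads of HIST1H2AK enter the rise of HIST1H2BN was not tested.

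Within a library, the ratio of HIST1H2BN to HIST1H2BF counts was 1.05 to 1.37 in siCT ethanol and 1.22 to 1.34 in siPRMT1 ethanol. It was 2.78 to 2.89 in siCT R5020 and 3.01 to 3.36 in siPRMT1 R5020. The R5020 libraries lay above the ethanol libraries in both siRNA states, and the ratio does not depend on scaling. These genes were chosen for the ratio after their values were seen. The siCT calls were lost in several settings: HIST1H2BN had adjusted p = 0.103 without siCT R5020 replicate 2 and 0.067 without replicate 3 of that group, and HIST1H2BF had 0.0634 when scaled by library totals alone.

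**Figure D3:**
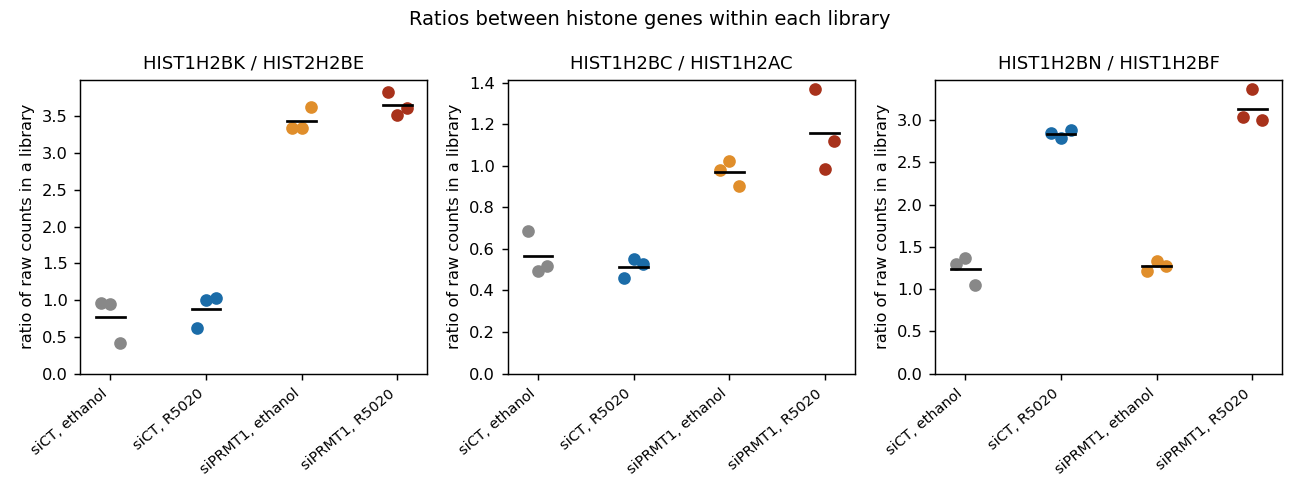
Ratio of raw counts between gene pairs within each library, by group, with a bar at the mean of 3 libraries. The ratio of HIST1H2BK to HIST2H2BE is 0.418 to 1.03 in siCT and 3.34 to 3.83 in siPRMT1, and that of HIST1H2BN to HIST1H2BF is higher in R5020 than in ethanol.

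HIST1H2AC, encoding H2A, fell with R5020 in siPRMT1 cells, from 85.1, 78.1 and 84.7 CPM to 48.4, 60.6 and 57.3. The log2 change was -0.58 ± 0.168 (adjusted p = 0.0334), and this call was kept in 10 alternative settings and lost in 11 (adjusted p up to 0.184). In siCT cells it was at 72.2, 89.1 and 55.9 CPM in ethanol and 56.6, 63.1 and 65.0 in R5020, which overlap, and the change was -0.23 ± 0.168 (adjusted p = 0.449). HIST1H2BG fell from 18.6, 17.4 and 17.2 CPM to 12.1, 12.3 and 13.5 in siPRMT1 cells, a change of -0.49 ± 0.126 (adjusted p = 0.0168), and its change in siCT was -0.25 ± 0.127 (adjusted p = 0.252). The call in siPRMT1 was kept in 14 settings and lost in 7. These effects were not shown to differ by siRNA. In the interaction of R5020 and siPRMT1, tested in the same edgeR fit, 0 of the 31 genes were called, 0 had an unadjusted p under 0.05, and 0 were called by DESeq2. Over all genes 0.0451% were called higher and 0.0338% lower in the interaction.

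**Figure D4:**
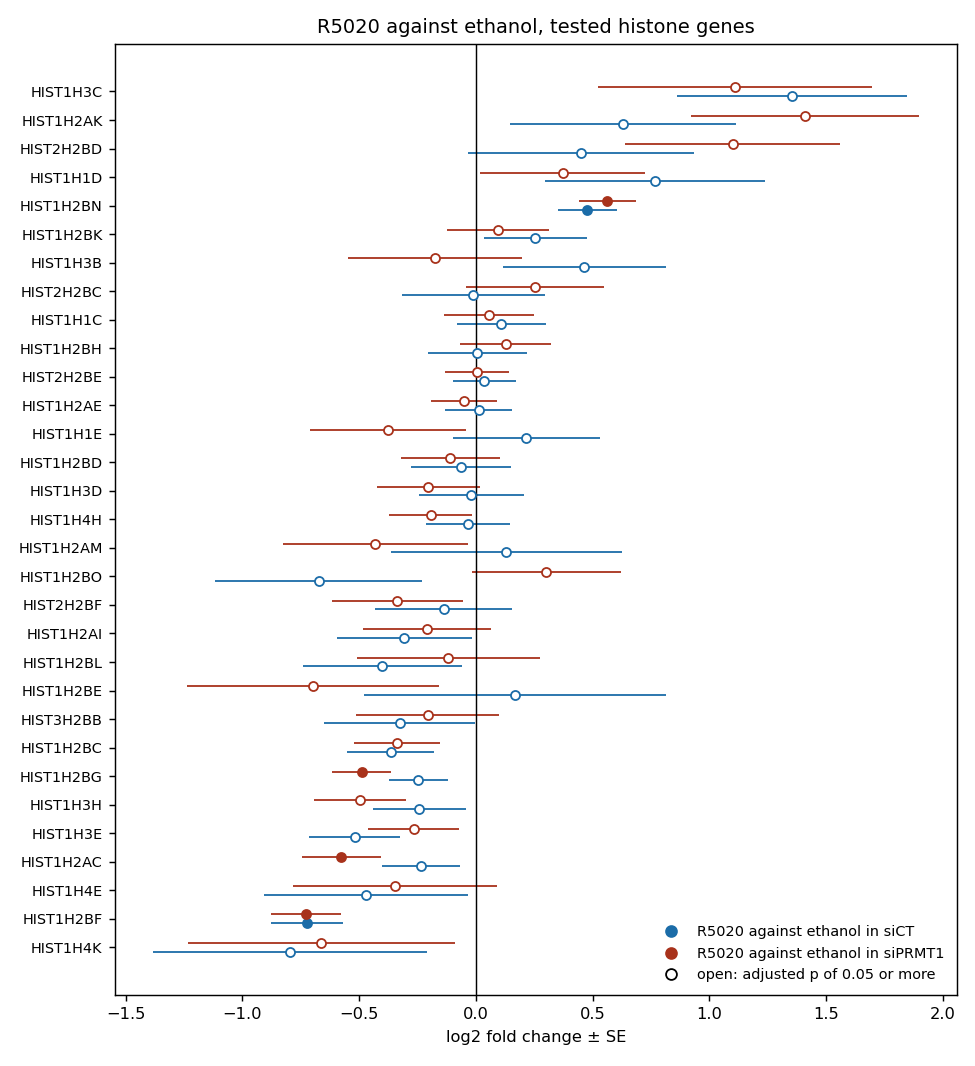
Log2 fold change of R5020 against ethanol for the tested histone genes, in siCT (blue) and in siPRMT1 (red), with bars of 1 SE, filled where the adjusted p is under 0.05. Filled points are HIST1H2BN to the right in both, HIST1H2BF to the left in both, and HIST1H2AC and HIST1H2BG to the left in siPRMT1.

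The number of calls for R5020 moved with single libraries and with the spread that was used. In siCT, 4 genes were called without siCT ethanol replicate 3 and 1 without siCT R5020 replicate 2 or 3, in place of 2. In siPRMT1, 2 were called in place of 4 without any 1 of the 3 siPRMT1 ethanol libraries, or without siPRMT1 R5020 replicate 1 or 2. When only the siPRMT1 libraries were fitted, 10 were called, 3 higher and 7 lower, and limma voom called 11. Without both siCT libraries of high mitochondrial share, which are in neither group of this comparison, 8 were called. The share of all genes called in these settings is not given here. The counts therefore show how calls moved, not a response of the histone genes as a set.

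Histone genes are often arranged as pairs that start head to head from a shared promoter. In GENCODE v29 (GRCh38), 11 pairs of the 70 genes on opposite strands had starts within 500 bases, and in 4 pairs both genes were tested. HIST1H2BC and HIST1H2AC start 218 bases apart on chromosome 6, in the window shown above. With siPRMT1 in ethanol HIST1H2BC rose by 0.97, whereas HIST1H2AC had 0.19 ± 0.168 (adjusted p = 0.403). With R5020 both were lower without overlap in siPRMT1 cells, with -0.34 for HIST1H2BC (adjusted p = 0.292) and -0.58 for HIST1H2AC, and in siCT cells they had -0.37 and -0.23. The ratio of their counts in a library was 0.460 to 0.686 in the siCT libraries and 0.901 to 1.37 in the siPRMT1 libraries. HIST1H2BG and HIST1H2AE start 282 bases apart, and both rose with siPRMT1 in ethanol, by 0.35 and 0.52. HIST1H2BL fell by 1.12 there, while HIST1H2AI, which starts 267 bases away, had 0.15 ± 0.275. HIST1H2BO and HIST1H2AM start 313 bases apart and had 1.13 ± 0.365 and 1.15 ± 0.436, the second with adjusted p = 0.0551. Both genes passed the filter only through siPRMT1 libraries, so these rises are not independent of the filter. In the pair of HIST1H2BK and HIST1H2AH, the first had 79683 counts over all libraries and the second 7. HIST2H2BE had 39917 counts and its partner HIST2H2AC 56.

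The libraries with the high mitochondrial share differed from their groups in the histone genes as well. On the log2 scale of CPM with 0.5 added, siCT ethanol replicate 3 was above the mean of replicates 1 and 2 by 1.71 for HIST1H4E, 1.20 for HIST1H2AK and 1.07 for HIST1H4K, all of whose 50-base words also occur in HIST1H4J. In siCT R5020 replicate 1 the same genes stood 1.12, 0.90 and 0.36 above the other replicates. HIST1H2BK stood at -0.87 and -0.49, HIST1H2BD at -0.76 and -0.63, and HIST1H1C at -0.76 and -0.33. The median over the 31 genes was -0.03 and 0.04. Of the nuclear and other noncoding RNAs, MALAT1 stood 2.18 and 1.88 higher, NEAT1 1.56 and 1.44, and RN7SK 1.45 and 1.31. HIST1H4E, encoding H4, was at 19 and 11.4 CPM in these libraries and at 4.68 to 8.52 in the 10 others. The part that RNA quality or the makeup of these libraries has in the levels was not tested. All 30 single calls given here were also made without both libraries.

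**Figure D5:**
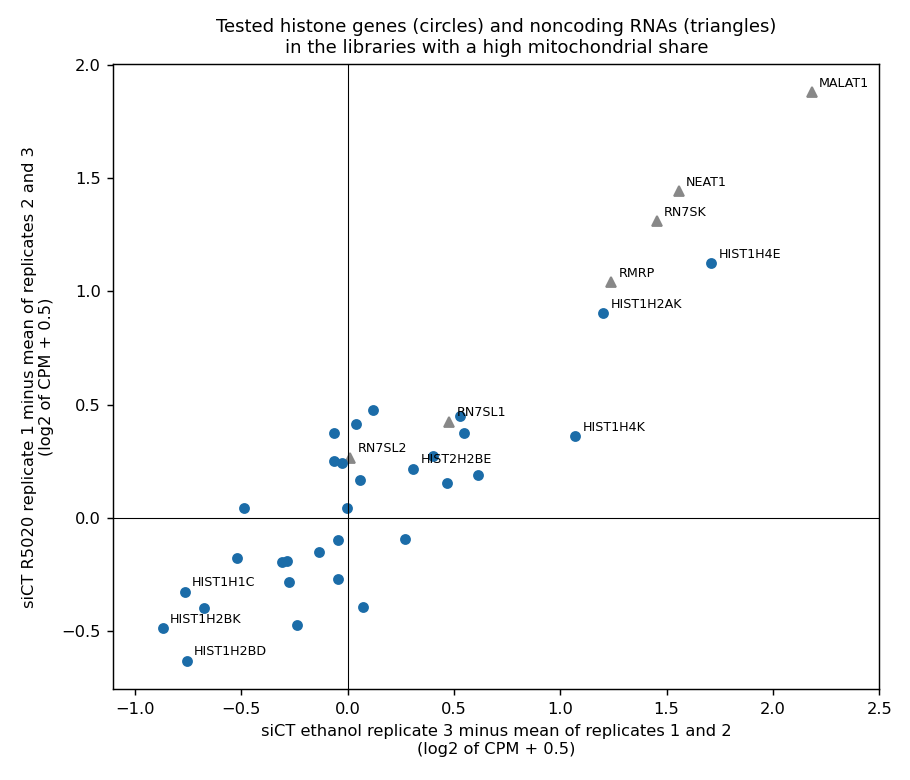
Difference of each library that stands apart from the other 2 replicates of its group, on the log2 scale of CPM with 0.5 added, for siCT ethanol replicate 3 (horizontal axis) and siCT R5020 replicate 1 (vertical axis). HIST1H4E (1.71, 1.12) lies near noncoding RNAs such as RN7SK, and HIST1H2BK (-0.87, -0.49) lies at the opposite corner.

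Genes of S phase and DNA replication were counted beside the histone genes. With R5020 in siCT cells, 11 of 16 rose and none fell, beside 7.59% of all genes higher, with a median log2 change of 0.71. Among them were GINS2 (2.71 ± 0.245), a part of the replicative helicase, E2F1 (1.52 ± 0.161), a transcription factor of the G1 to S transition, MCM5 (1.49 ± 0.164), a helicase subunit, POLE2, CDC6 and MCM7. In siPRMT1 cells, R5020 raised 6 of 16, beside 9.30% of all genes, with a median of 0.18. With siPRMT1 in R5020, 9 of 16 fell and none rose, beside 14.2% of all genes lower (median -0.62), with E2F1 at -1.31 ± 0.160 and CDC6, which loads the helicase, at -1.14 ± 0.149. In ethanol, 3 rose and 4 fell, beside 13.6% and 19.2% of all genes (median -0.09). The interaction called none in edgeR or DESeq2, with 6 of 16 at an unadjusted p under 0.05. The histone genes gave 9 higher and 2 lower with siPRMT1 in R5020, and the difference between the lists was not tested.

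Factors that transcribe, process or degrade histone mRNA were measured in full, with 26 of 26 tested. With R5020, 3 rose in siCT, namely CCNE2 (1.49 ± 0.177), a cyclin E, its partner kinase CDK2 and the uridylyltransferase ZCCHC6, while 2 rose and 1 fell in siPRMT1. Of all genes, 7.59% were called higher in siCT, and 9.30% higher and 6.08% lower in siPRMT1. The medians of the 26 were 0.10 and 0.06. With siPRMT1, 4 rose and 3 fell in ethanol and 4 rose and 4 fell in R5020 (medians 0.04 and 0.07), beside 13.6% and 19.2% of all genes in ethanol and 11.5% and 14.2% in R5020. Without both libraries of high mitochondrial share, R5020 raised 6 in siCT and 7 in siPRMT1, and siPRMT1 raised 5 and lowered 6 in ethanol. The share of all genes called in that setting is not given here, so these counts show only how calls moved. NCBP1, a subunit of the nuclear cap-binding complex, rose by 0.73 ± 0.130 and 0.61 ± 0.130, CSTF3, a subunit of the cleavage stimulation factor, by 0.87 ± 0.171 and 0.64 ± 0.171, and ERI1, a 3′ exonuclease of histone mRNA, by 0.80 ± 0.193 and 0.70 ± 0.193. Among those that fell were CDK2 (-0.72 ± 0.140 and -0.94 ± 0.140), HINFP, a transcription factor of H4 genes (-0.55 ± 0.157 and -0.48 ± 0.158), and MIF4GD, a partner of SLBP in translation (-0.74 ± 0.185 and -0.71 ± 0.185). SLBP was not called, with 0.37 ± 0.215 and 0.27 ± 0.214 with siPRMT1 and 0.68 ± 0.216 with R5020 in siCT (adjusted p = 0.0546). Without the 2 libraries SLBP was called with R5020 in both siRNA states, at 0.62 ± 0.0955 and 0.57 ± 0.0778 (adjusted p = 0.000648 and 0.000155). NPAT, the coactivator of histone genes in S phase, had 0.24 ± 0.136 and 0.12 ± 0.136 with siPRMT1. The interaction called none of the 26 in edgeR or DESeq2, with 0 at an unadjusted p under 0.05.

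Of 20 histone chaperones and related factors, R5020 raised 4 in siCT (median 0.28), beside 7.59% of all genes. In siPRMT1 it raised 2 (median 0.12), near the 9.30% of all genes. Without both libraries of high mitochondrial share it raised 7 and 4 of the 20. The share of all genes called without those libraries is not given, here or for the lists that follow. Calls in that setting therefore show only how calls moved. The highest was NAP1L4, a chaperone of H2A and H2B, with 1.85 ± 0.162 and 1.77 ± 0.161, followed by RBBP7, a histone-binding subunit, with 1.48 ± 0.196 and 0.81 ± 0.193. With siPRMT1, 5 rose and 2 fell in ethanol (median 0.20), beside 13.6% of all genes higher and 19.2% lower. In R5020, 3 fell (median 0.03), near the 14.2% of all genes lower. They were ASF1B (-0.93 ± 0.244), CHAF1B (-0.59 ± 0.177) and MCM2 (-0.66 ± 0.154). Of 12 tested genes of replication-independent histone variants, which are made outside S phase and have polyadenylated mRNAs, H3F3B, an H3.3 gene, rose with R5020 (0.67 ± 0.190 and 0.63 ± 0.190). H2AFZ, encoding H2A.Z, rose with siPRMT1 (0.88 ± 0.181 and 0.60 ± 0.180), and no other variant was called in these 4 comparisons. In each comparison, 1 call among 12 is near or below the share of all genes called higher. Without those 2 libraries 4 further variants were called at least once, namely H1F0, H2AFJ, H2AFY2 and H3F3C. H2AFX, a histone gene outside the name rule, rose with R5020 in siPRMT1 cells by 0.71 ± 0.217 (adjusted p = 0.0424), and the 2 others tested, HIST3H2A and HIST4H4, were not called, although HIST4H4 was called with siPRMT1 in ethanol without those libraries (0.83 ± 0.246, adjusted p = 0.0172). Of 6 tested RNAs without a poly(A) tail or retained in the nucleus, RN7SK and RN7SL2 fell with siPRMT1 in ethanol (-1.91 ± 0.690 and -0.89 ± 0.308). Of all genes, 19.2% were called lower there. RN7SK was at 0.681, 0.383 and 2.3 CPM in siCT ethanol, the highest value being that of replicate 3, which has the high mitochondrial share. Without both such libraries the changes were -0.97 and -0.87, still called, and NEAT1 fell by 0.43, whereas MALAT1 turned from -0.71 to 0.40 and was called. With all libraries, none was called in the other comparisons between groups by edgeR or DESeq2, with 1 at an unadjusted p under 0.05 (siPRMT1 in R5020). In the interaction, edgeR and DESeq2 called 0 of the chaperones, variants, other histone genes and noncoding RNAs, with 3 chaperones and 0 of the others at an unadjusted p under 0.05.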

How the data were processed

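RNA-seq of 12 T47D libraries was analysed. The authors deposited raw read counts per gene symbol for each library. The build was hg19 and the tools named were HTSeq 0.9.1, Bowtie2 2.3.2.2 and DESeq2, per the submitters' processing notes, which state no roles. How strand and reads that map to several genes were treated, and on which annotation, is not given in the sources used here; such settings can lower the counts of near-identical histone genes. The authors' own table of comparisons was not used here.

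Counts were tested with edgeR 4.0.16 (R 4.3.3): filterByExpr left 17727 genes, libraries were scaled by TMM, and all 12 libraries entered a fit with 1 mean for each group. The quasi-likelihood test was used with Benjamini-Hochberg adjustment over all genes tested, at an adjusted p under 0.05. Groups come from the siRNA and treatment labels. Levels are TMM-scaled CPM. SEs are of log2 values, and 95% intervals use edgeR's total degrees of freedom (residual plus prior). Libraries of 26783525 to 34120937 counts set the precision, and the counts carry no molecular identifiers, so counting limits cover counting error only. Alternatives were limma 3.58.1 voom, DESeq2 1.42.0 (for the same 31 genes), other scalings and filters, a replicate block, and libraries left out. The procedure was tested on simulated data. Named genes are all called members, the 12 members with the highest mean CPM, HIST2H4A/B, HIST2H3A/C, PRMT1 and up to 6 called genes per list and comparison. Members, lists and libraries that stand apart were chosen with earlier results of these data known. Sequence features come from GENCODE v29 and RefSeq (GRCh38), matched by name, with old symbols matched to current RefSeq genes by overlap. No hg19 coordinates were used.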

Additional observations from a re-analysis of the deposited data

How the results depend on the processing

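The tests were repeated in 21 settings, 12 of which left out 1 library. R5020 in siCT, with 2 histone genes called, gave 0 under library totals alone, 0 with only the groups compared, 0 with limma voom and quality weights, 1 with no filter and 1 with the replicate block, and 1 to 4 when single libraries were left out. R5020 in siPRMT1, with 4 called, gave 2 under library totals alone (1 higher, 1 lower), 2 with no filter, 10 with only the groups compared, 8 without both libraries that stand apart, 11 with voom and 2 to 6 when single libraries were left out. With siPRMT1 in ethanol, 13 were called, against 5 under library totals alone, 5 with only the groups compared, 7 with voom and 6 to 14 when single libraries were left out. With siPRMT1 in R5020, 11 were called, against 4 under library totals alone and 6 to 11 when single libraries were left out. The interaction called 0 in each setting run (it could not be fitted with only the groups compared). Leaving a library out leaves 2 in its group, and the cause of these differences was not tested. The share of all genes called is not given beside these counts, so they describe only how calls moved. Library totals alone shifted the median of all genes by -0.17 for R5020 in siPRMT1 and by -0.14 for the interaction, and the share of all called genes that were higher went from 60.5% to 43.5% for R5020 in siPRMT1 and from 44.9% to 30.6% for siPRMT1 in R5020.

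Of 30 single calls recomputed 625 times in all, 490 kept their call and direction, 135 lost the call and 0 changed direction. Calls were kept in all 21 settings by HIST1H2BK and HIST1H4H with siPRMT1 in both treatments, and by HIST1H2BF with R5020 in siPRMT1. That of HIST1H2BO with siPRMT1 in R5020 was kept in the 20 settings in which it was tested. HIST1H2BO passed the main filter only through siPRMT1 libraries, where it was high, so its call is not independent of the filter. Same-numbered libraries of different groups had correlations of their deviations from -0.667 to 0.29 in 18 pairs, 3 of them over 0.1. No pairing by number was visible. The check cannot exclude one, because the 2 libraries that stand apart weigh on it. These have different numbers and correlated at 0.808. With the replicate block the counts were 1, 3, 10, 8 and 0 in the order above. HIST1H2BO, HIST1H1D, HIST1H2BL and HIST1H1E had at most 50 counts in a library, and a change in the 39 genes not tested could not be assessed from these counts. The gene lists beside the histone genes were also counted without both libraries that stand apart, an alternative chosen after seeing the data.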
